A study of Rattus norvegicus with 4 samples.

Results

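The receptors for serotonin, dopamine, noradrenaline and adrenaline, histamine and acetylcholine were examined in the hippocampus of newborn rats. The members were chosen by gene symbol, as every row with an NCBI gene ID whose symbol names a serotonin (Htr), dopamine (Drd), alpha or beta adrenergic (Adra, Adrb), muscarinic (Chrm), nicotinic (Chrn) or histamine (Hrh) receptor gene. This gave 50 of the 13984 rows with a gene ID and of the 17445 rows in all. There were 14 serotonin, 5 dopamine, 9 adrenergic, 5 muscarinic, 13 nicotinic and 4 histamine receptor genes, and they are 50 of the 53 genes with such symbols that RefSeq lists for the assembly GRCr8. The 3 others, Chrna9, Chrnd and Chrng, were not analysed here.

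Hippocampal RNA of Wistar pups on postnatal day 1 was sequenced. The dams were given as 10 weeks old in the sample records and as younger at purchase in the study's methods. They received bisphenol A (BPA) at 5000 µg per kg body weight daily into the stomach from gestation day 1 to birth, or vehicle alone. BPA is an endocrine-disrupting chemical that binds estrogen receptors and is found in polycarbonate plastics. The 4 groups were control males, BPA males, control females and BPA females, with 1 library each made from 3 pooled hippocampi, so no group had a replicate library and a single pup cannot be seen. Levels are in FPKM, fragment counts scaled to the length of the gene model and to the depth of the library. Where 4 levels follow each other, they stand for these libraries in this order. The steps between low values gave a depth of 8760000 to 8860000 fragments per library, at which 1 FPKM stands for about 8.10 to 8.18 fragments in a gene of 1 kb.

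Most of these receptors are G protein-coupled. Those coupled to Gq raise calcium inside the cell, those coupled to Gs raise cyclic AMP and those coupled to Gi lower it, while the nicotinic receptors and the serotonin receptor Htr3 are ion channels built of several subunits. In the hippocampus the ligands come mainly from axons of distant cell groups: serotonin from the raphe nuclei, noradrenaline from the locus coeruleus, dopamine from the midbrain, histamine from the hypothalamus and acetylcholine from the septum. The 10 markers listed for hippocampal pyramidal or granule neurons were all present, with a summed level of 371 to 426 FPKM, whereas the 6 listed markers of monoamine or cholinergic cell bodies together reached 2.11 to 3.06 FPKM.

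The control regions of the genes were first looked at as sequence, since the receptors differed widely in level. RefSeq promoters of GRCr8, from 250 bases before to 50 bases after the gene start, were found for 38 of the 50 members. Those of Chrnb2, the member with the highest level, of the muscarinic receptors Chrm1 and Chrm3, on which the comparisons below turn, and of the histamine receptor Hrh3 are given here from 5′ to 3′ along the gene, with the letters of a searched motif in capitals. Their gene IDs are, in this order, 54239, 25229, 24260 and 85268, and the promoters lie at chr2:177487257-177487556 (minus strand), chr1:214996109-214996408 (plus), chr17:64696677-64696976 (plus) and chr3:187574210-187574509 (minus).
Chrnb2: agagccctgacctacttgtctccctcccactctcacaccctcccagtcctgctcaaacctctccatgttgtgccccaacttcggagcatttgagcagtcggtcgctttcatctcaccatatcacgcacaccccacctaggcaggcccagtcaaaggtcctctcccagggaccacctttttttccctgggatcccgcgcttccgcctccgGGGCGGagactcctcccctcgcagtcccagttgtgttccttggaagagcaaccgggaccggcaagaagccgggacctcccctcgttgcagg
Chrm1: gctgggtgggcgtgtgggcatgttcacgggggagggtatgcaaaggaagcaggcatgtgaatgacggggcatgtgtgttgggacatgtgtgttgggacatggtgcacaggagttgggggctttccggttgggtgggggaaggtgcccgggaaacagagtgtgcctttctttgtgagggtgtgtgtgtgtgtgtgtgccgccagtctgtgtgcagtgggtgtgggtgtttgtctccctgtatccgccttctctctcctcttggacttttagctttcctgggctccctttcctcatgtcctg
Chrm3: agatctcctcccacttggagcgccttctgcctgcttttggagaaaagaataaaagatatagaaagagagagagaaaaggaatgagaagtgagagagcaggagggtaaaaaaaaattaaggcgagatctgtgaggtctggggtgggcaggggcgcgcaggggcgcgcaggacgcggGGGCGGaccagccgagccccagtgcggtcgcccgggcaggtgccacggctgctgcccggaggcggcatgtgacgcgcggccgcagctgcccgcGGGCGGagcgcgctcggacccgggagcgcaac
Hrh3: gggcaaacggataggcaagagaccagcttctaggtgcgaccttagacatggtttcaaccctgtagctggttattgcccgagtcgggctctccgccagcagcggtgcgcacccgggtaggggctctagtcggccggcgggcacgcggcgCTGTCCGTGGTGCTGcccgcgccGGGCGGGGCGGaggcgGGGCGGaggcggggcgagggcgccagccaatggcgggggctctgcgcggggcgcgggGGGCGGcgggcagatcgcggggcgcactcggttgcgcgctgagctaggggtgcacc

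The motifs searched on both strands were the TATA box (TATAAA), the GC box (GGGCGG), the cyclic AMP response element (TGACGTCA) and the core of RE1, the site of the repressor REST (CAGCACC, then any pair of bases, then GGACAG), and copies of the GC box may overlap each other. The promoter of Chrm1 held none of them and 7 CpG, the dinucleotide that DNA methylation acts on, while that of Chrm3 held 2 GC boxes and 28 CpG. That of Hrh3 had the RE1 core, which occurred in 10 of all 27457 promoters (0.0364%) and in no other of the 38 member promoters. Of the 18 promoters of members that reached 1 FPKM in a library, 16 (88.9%) held at least 10 CpG, against 13 of 20 (65.0%) for members under 1 FPKM in every library and 44.1% of all promoters. A GC box stood in 61.1% of the former, in 55.0% of the latter and in 34.9% of all. TATAAA stood in 2 of the 38 (5.26%, against 14.3% of all) and TGACGTCA in none (1.91% of all). These are matches of letters, and binding to them was not measured.

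In level, the receptors were low to moderate genes. Of the 50 members 40 were listed in all 4 libraries, 8 for females only and 2 for males only, and 23 reached 1 FPKM in at least 1 library. The mean of only 6 members exceeded the median of all rows with a gene ID, 9.44 FPKM. Summed over all members the level was 149, 145, 140 and 132 FPKM. Nicotinic subunits made up 39.6% to 43.1% of this sum, muscarinic receptors 20.2% to 25.6%, serotonin receptors 18.3% to 20.5% and adrenergic receptors 9.20% to 14.7%. Dopamine and histamine receptors each stayed at or under 3.31%. By coupling, ion channel subunits took 41.2% to 45.0%, Gq-coupled receptors 26.0% to 33.0%, Gi-coupled receptors 20.8% to 26.6% and Gs-coupled receptors 4.28% to 5.39%. In bulk tissue fewer cells with a receptor and less RNA per cell cannot be told apart.

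**Figure D1:**
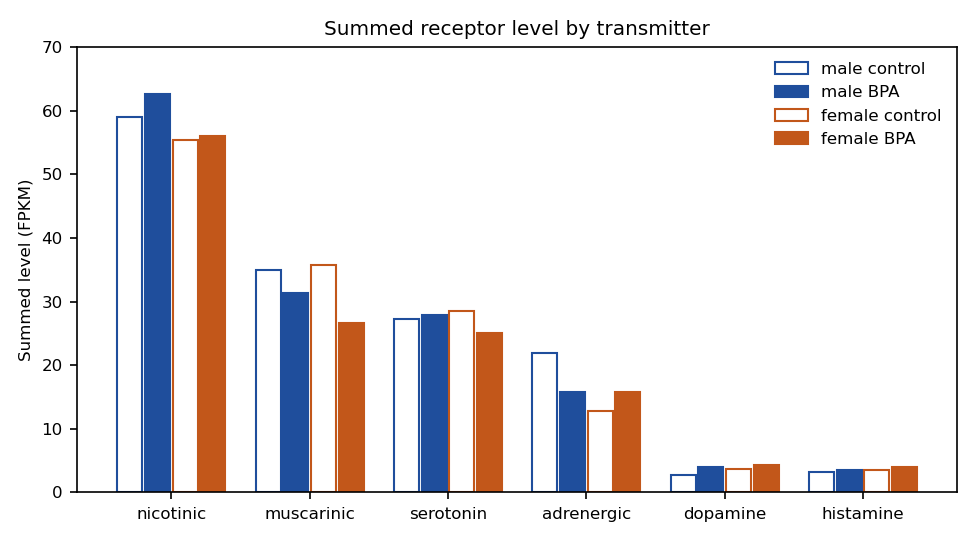
Bars give the summed FPKM of the members of each transmitter class in the 4 libraries, with 1 pooled library per bar and therefore no error bar. The nicotinic sum was the highest in every library (55.3 to 62.6 FPKM), and the muscarinic sum was the lowest in female BPA (26.7 FPKM).

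Among the ion channels, the beta2 subunit Chrnb2 had the highest mean of all members, with 21.4 FPKM in control and 24.6 in BPA males and 21.0 in control and 20.2 in BPA females. The alpha7 subunit Chrna7, which forms receptors on its own, followed with 19.0, 20.3, 15.1 and 18.5 FPKM. Chrna4, the partner of beta2 in the common brain receptor, was even across libraries, with 10.1, 9.26, 9.89 and 8.90 FPKM. These 3 genes held 83.3% to 86.4% of the nicotinic sum. The accessory subunit Chrna5 was at 4.14, 3.91, 4.65 and 3.99 FPKM, and Chrna3, the main subunit of autonomic ganglia, at 1.49, 1.26, 1.68 and 1.19 FPKM. Both BPA libraries lay under both control libraries for Chrna3, Chrna4 and Chrna5. Chrne, a subunit of the adult muscle receptor, was at 0.80, 0.66, 1.26 and 0.74 FPKM. Htr3a, the serotonin-gated channel of some interneurons, was at 2.27, 2.74, 3.09 and 2.76 FPKM, while its partner Htr3b was listed for females only, with at most 1 fragment.

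Chrna2, a subunit of interneurons of the stratum oriens, stood out by 1 library. It was at 0.97, 1.21, 0.31 and 1.34 FPKM, from 16, 20, 5 and 22 fragments. The female control library was low and the 3 others were close together. The ratio of female BPA to female control was 4.32, with an exact 95% interval of 1.63 to 15.0 that covers counting error between these libraries only. In males it was 1.25 (0.616 to 2.58).

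Of the muscarinic receptors coupled to Gq, Chrm1 and Chrm3 had the highest means of the G protein-coupled members and Chrm5 was low. Chrm1, the main muscarinic receptor of forebrain pyramidal cells, was at 11.7 FPKM in control and 14.4 in BPA males, and at 16.1 in control and 9.65 in BPA females. Chrm3, coupled in the same way, was at 12.4, 9.39, 13.3 and 10.8 FPKM. Chrm5, a rarer relative, was at 2.91, 1.39, 1.73 and 1.15 FPKM. For Chrm3 and Chrm5 both BPA libraries lay under both control libraries, whereas for Chrm1 the female libraries were the highest and the lowest of the 4. The Gi-coupled Chrm4 was at 7.21, 5.63, 3.79 and 4.46 FPKM, with both male libraries above both female ones, and Chrm2, the receptor known from the heart and cholinergic axon terminals, stayed at 0.51 to 0.81 FPKM.

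Of the serotonin receptors, the Gq-coupled Htr2c was the highest, at 10.0, 10.6, 12.1 and 9.18 FPKM. It is known for its dense expression in the choroid plexus, the ventricular tissue that makes cerebrospinal fluid. Its relative Htr2a was at 1.05, 0.90, 1.23 and 1.14 FPKM. The Gi-coupled autoreceptors Htr1a and Htr1b, which also sit on hippocampal neurons, were at 4.32, 4.15, 4.01 and 2.65 FPKM and at 3.4, 4.77, 3.04 and 3.74 FPKM. For Htr1a the female BPA library was low and the 3 others lay within 0.31 FPKM of each other. Htr7, coupled to Gs, was at 3.79, 3.09, 2.34 and 3.59 FPKM.

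Of the adrenergic receptors, the Gi-coupled Adra2c was at 11.9, 7.52, 5.97 and 6.88 FPKM. Here the male control library was high and the 3 others lay together. Its relative Adra2a was at 5.78, 5.17, 4.49 and 5.88 FPKM. Adrb1, the beta receptor of forebrain neurons, was at 2.11, 1.19, 0.52 and 0.85 FPKM, from 25, 14, 6 and 10 fragments, with both male libraries above both female ones. The D2 dopamine receptor Drd2, coupled to Gi, was at 1.89, 2.54, 2.15 and 3.07 FPKM, and the Gs-coupled Drd5 was at 0.58, 1.00, 0.93 and 0.75 FPKM. Hrh3, the presynaptic histamine receptor, was the steadiest named member, at 2.94, 2.99, 3.05 and 2.97 FPKM.

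When the 23 members that reached 1 FPKM were ordered by their mean, the ranges over the 4 libraries overlapped for 21 of the 22 neighbouring pairs, and only Adra2c lay wholly above its neighbour Adra2a. The order within the list is therefore not resolved from one gene to the next.

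**Figure D2:**
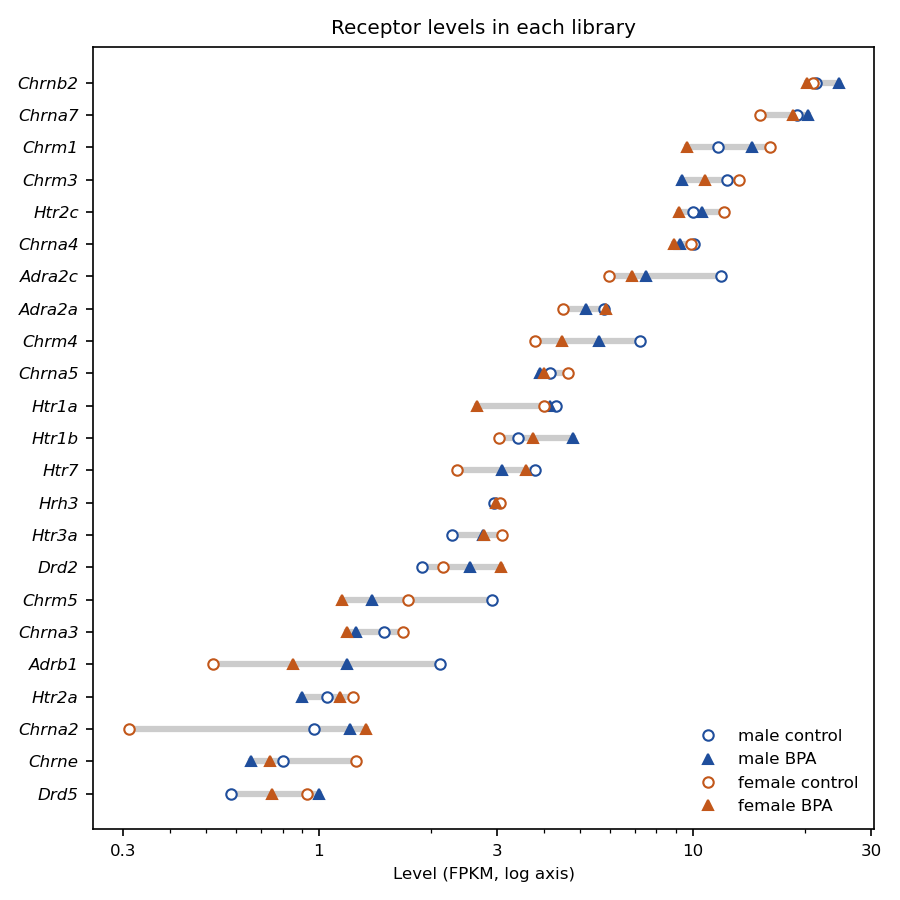
Points give the level of each of the 23 members in the 4 libraries (FPKM, log axis), blue for males and orange for females, open circles for control and filled triangles for BPA, with a grey bar for the range. Chrnb2 and Chrna7 lie at the top, Hrh3 has the narrowest range (2.94 to 3.05), and Chrna2 (0.31 to 1.34) and Adrb1 (0.52 to 2.11) have the widest.

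The remaining 27 members stayed under 1 FPKM in every library, and 15 of them never exceeded 5 fragments in a library. The better covered of them were the alpha1 receptors Adra1a (0.58 to 0.91 FPKM, up to 35 fragments), Adra1b (0.33 to 0.92 FPKM) and Adra1d (0.35 to 0.40 FPKM), the D1 receptor Drd1 (0.23 to 0.55 FPKM), the serotonin receptors Htr5a, Htr5b, Htr4 and Htr6 (between 0.06 and 0.91 FPKM), and the nicotinic subunits Chrnb4 (0.40 to 0.87 FPKM) and Chrnb1 (0.25 to 0.66 FPKM). Hrh2, a Gs-coupled histamine receptor, was at 0.11, 0.34, 0.23 and 0.68 FPKM, which is 1, 3, 2 and 6 fragments. Adrb3, Hrh1, Chrna1 and Chrnb3 were listed in all libraries with at most 4 fragments. The members listed for females only (Adra2b, Chrna6, Drd3, Hrh4, Htr1d, Htr1f, Htr2b and Htr3b) or for males only (Chrna10 and Drd4) reached at most 0.22 FPKM. Htr1d, for example, had 2 fragments in female BPA and none in female control, where a count of 0 allows up to 0.324 FPKM (3 fragments), so that no difference was detectable at this depth.

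The effect of BPA over both sexes was tested with limma on log2(FPKM + 1), 2 BPA libraries against 2 control libraries, over the 13542 rows whose mean reached 1 FPKM. Of the 20 members in this fit, none passed an adjusted p under 0.05, where 0.0% of all rows did. At an unadjusted p under 0.05 it was 1 of 20 (5%), against 4.7% of all rows. This was Chrm3, with a difference of -0.32 (standard error 0.133) on the log2 scale, an unadjusted p of 0.0479 and an adjusted p of 0.973 in limma. Chrm3 was lower in 2 of 2 sexes, with a ratio of BPA to control of 0.758 in males (counting interval 0.657 to 0.877) and of 0.810 in females (0.706 to 0.928).

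The next members by p were Chrm5 with a log2 difference of -0.53 (standard error 0.266), Htr1b with 0.31 (0.190), Drd2 with 0.33 (0.209), Chrna7 with 0.18 (0.143) and Htr1a with -0.25 (0.219). Each had an adjusted p of 0.973 in limma and the same direction in both sexes. The ratio of BPA to control for Chrm5 was 0.478 in males (counting interval 0.310 to 0.745) and 0.665 in females (0.4 to 1.13). For Drd2 the intervals of both ratios, 1.34 in males and 1.43 in females, included 1, as did those of Htr1b, 1.40 and 1.23. Some of these values rest on 1 library. Without male control, Chrm5 differed by -0.27 and Chrna7 by 0.34, without male BPA Chrna7 by 0.12, Htr1a by -0.50 and Htr1b by 0.17, without female control Chrna7 by 0.03, and without female BPA Htr1a by -0.0035. In 7 of the 20 members (35.0%) both BPA libraries lay on one side of both control libraries, namely higher for Drd2 and Htr1b and lower for Chrm3, Chrm5, Chrna3, Chrna4 and Chrna5. Among all rows tested this share was 33.6%, of which 13.8% were higher and 19.9% lower. The members' share is thus close to that of all rows.

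Within a sex 1 library stands against 1, so the differences describe these libraries and have no replicate check. Among the 20 tested members, the median log2 difference between BPA and control was -0.087 in males and -0.056 in females, beside -0.0041 and -0.038 for all rows with a gene ID. The median absolute difference was 0.194 in males and 0.278 in females, beside 0.115 and 0.148. Of the 20 members, 11 had a mean of 1 to 5 FPKM. Neither this comparison nor the counts past a threshold below were matched for level. The direction was the same in both sexes for 10 of the 20 members (50%), 3 of them higher and 7 lower, and for 56.8% of all rows with a gene ID.

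In males, 3 of the 20 members with a mean of at least 1 FPKM in the male libraries had an absolute log2 difference of at least 0.5, all lower in BPA, where 3.46% of all rows with a gene ID did (1.35% higher and 2.11% lower). These were Chrm5 (-0.71), Adra2c (-0.60) and Adrb1 (-0.51), the last not after quantile normalization. In females Chrm5 differed by -0.34, Adra2c by 0.18 and Adrb1 by 0.28. For Adra2c the ratio of BPA to control was 0.631 in males (counting interval 0.493 to 0.810) and 1.15 in females (0.849 to 1.55). For Adrb1 it was 0.564 in males, and its interval of 0.270 to 1.13 included 1. With Adra2c and Adrb1, the male control library was the highest of the 4 and the female control library the lowest.

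In females, 1 of 20 members was past the same threshold, Chrm1 with -0.68, where 6.15% of all rows with a gene ID were (1.16% higher and 4.99% lower). After quantile normalization it was 3 members, with Htr7 (0.59) and Drd2 (0.51) as the higher ones beside Chrm1 (-0.62). The ratio of female BPA to female control for Chrm1 was 0.601 (counting interval 0.525 to 0.688), from 581 and 348 fragments. In males it was 1.24 (1.09 to 1.41), from 423 and 525 fragments. No other member had counting intervals on opposite sides of 1 in the 2 sexes.

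Read against the counting error alone, the ratio of BPA to control excluded 1 in 6 of the 42 members listed for males (14.3%) and in 6 of the 48 listed for females (12.5%). The share of all rows with a gene ID was 20.8% in males and 29.0% in females. In males the 6 were Chrm1 and Chrnb2 (higher in BPA) and Chrm3, Chrm4, Chrm5 and Adra2c (lower). In females they were Adra2a, Chrna2 and Chrna7 (higher) and Chrm1, Chrm3 and Htr2c (lower). Thus 4 of the 5 muscarinic receptors in males and 2 of 5 in females lay outside the counting error. In males they did not share a direction, and the other families were not counted in this way. Whether an interval excludes 1 also depends on the number of fragments, which was 339 to 581 for Chrm1 and Chrm3 and 11 to 17 for Chrm2. Several intervals ended close to 1, at 0.987 for Chrm4 and 1.00 for Chrnb2 in males and at 1.01 for Chrna7 in females, and with 99% intervals 4 members remained outside in males and 4 in females. Spread between pups or litters is not part of these intervals.

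**Figure D3:**
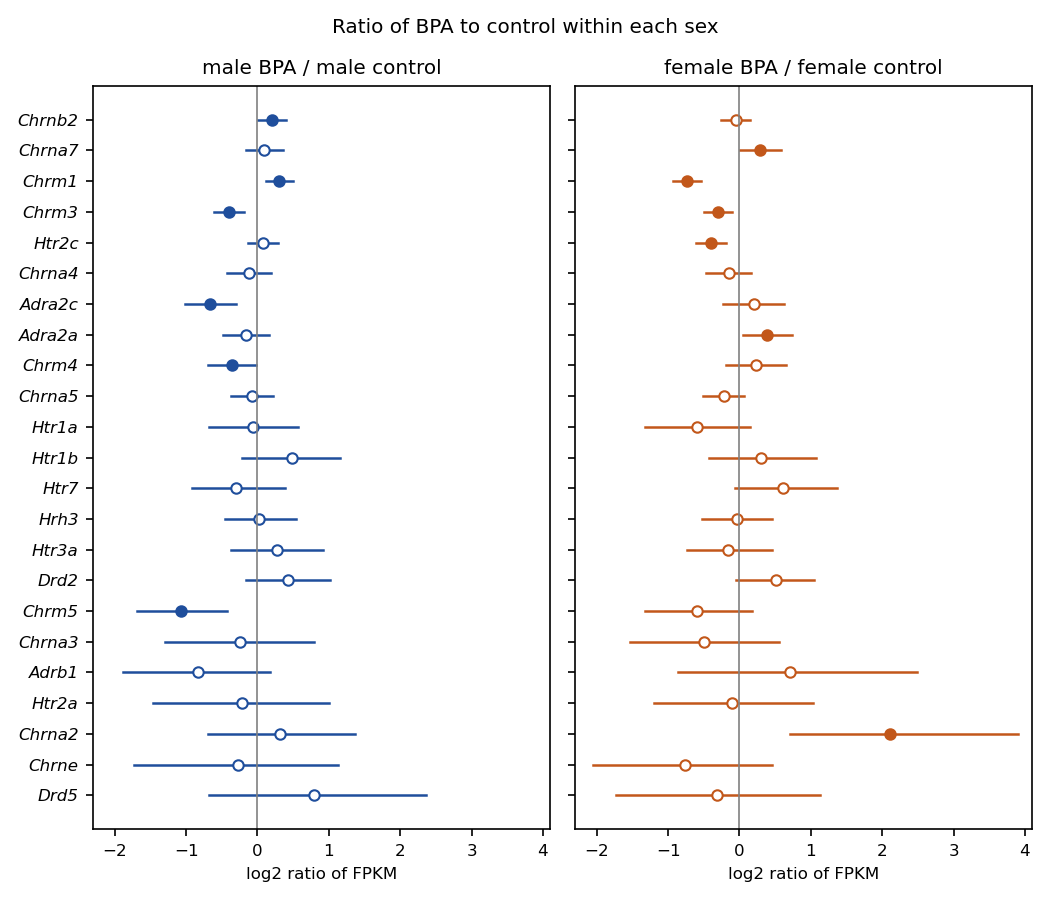
Points give the log2 ratio of FPKM in BPA to control for 23 members, males on the left and females on the right, in the order of their mean level, with exact 95% intervals for counting error, and filled points mark intervals that exclude 1. Chrm1 is on opposite sides in the sexes, with ratios of 1.24 in males and 0.601 in females, while Chrm3 is lower in both.

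Markers of other cells and layers differed between the libraries as well. For Htr2c, the summed level of the 10 choroid plexus markers was 279 and 722 FPKM in control and BPA males and 20.1 and 54.2 FPKM in control and BPA females. Ttr (transthyretin), the most abundant of them, was at 257, 690, 3.96 and 42.4 FPKM, and Folr1 and Clic6 were at 0.16 to 6.63 FPKM. Each of the 10 was listed in all 4 libraries, and 4 of 7 tested in males and 2 of 7 in females had an absolute log2 difference of at least 0.5. Their part in the level of Htr2c was not tested. Most of this sum is Ttr. The other 9 markers summed to 22.6, 32.4, 16.1 and 11.9 FPKM, and 9 of 9 were higher in BPA in males while 7 of 9 were lower in BPA in females. Htr2c was lowest in female BPA, as was the sum without Ttr. Htr2c was highest in female control, where that sum was under both male libraries, while the sum itself was highest in male BPA. The ratio of BPA to control for Htr2c was 1.05 in males (0.914 to 1.22) and 0.759 in females (0.659 to 0.874).

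For Chrm1, the neuron markers moved unevenly. Zbtb20, a factor of hippocampal neurons, was at 17.6, 21.6, 23.7 and 16.2 FPKM, the same order of libraries as Chrm1. Prox1, a factor of dentate granule cells, was at 12.4, 10.2, 12.8 and 7.61 FPKM. Over the 10 markers the summed level was 415, 416, 371 and 426 FPKM, and 1 of 10 in males and 5 of 10 in females had an absolute log2 difference of at least 0.5. The part of these markers in the difference of Chrm1 was not tested.

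**Figure D4:**
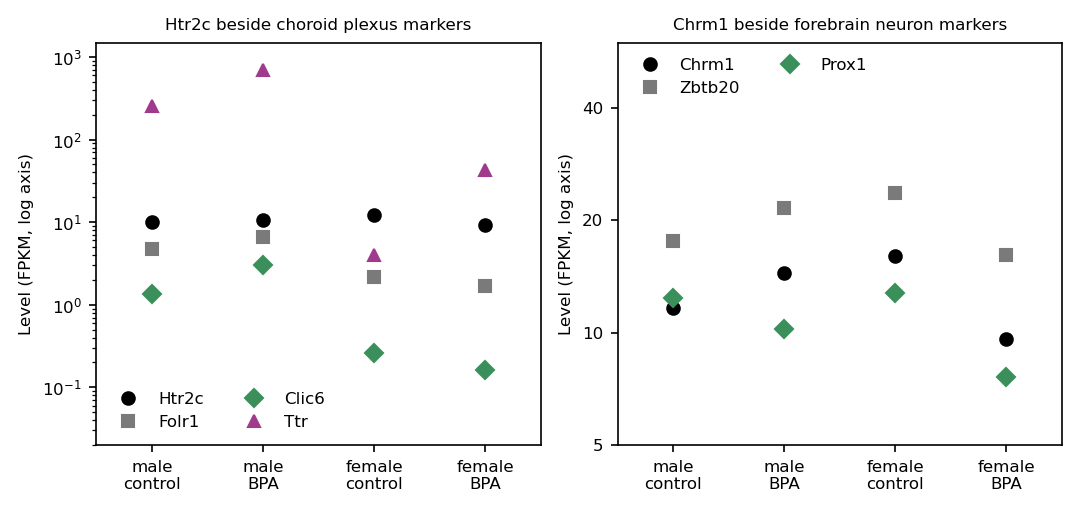
The left panel gives the levels of Htr2c and of 3 choroid plexus markers, and the right panel those of Chrm1 and of the neuron markers Zbtb20 and Prox1, in the 4 libraries (FPKM, log axes). Ttr spans 3.96 to 690 FPKM and Htr2c 9.18 to 12.1, and Chrm1 and Zbtb20 share the order of libraries. Folr1 and Clic6 are lowest in female BPA as Htr2c is, but Htr2c is highest in female control and the choroid plexus markers in male BPA.

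The 8 markers of meninges and vessel wall summed to 57.2, 43.5, 116 and 51.2 FPKM, so that female control was high, and 6 of 7 tested in females and 3 of 7 in males had an absolute log2 difference of at least 0.5. Microglia markers summed to 37.6 to 48.2 FPKM, interneuron markers to 261 to 326, astrocyte or radial glia markers to 1011 to 1137 and oligodendrocyte markers to 90.0 to 131 FPKM. The striatal list, which includes Drd1 and Drd2, summed to 44.2 to 48.8 FPKM, the 4 listed thalamic or habenular markers to 47.2 to 58.7 FPKM and the 4 listed skeletal muscle markers to 4.68 to 4.94 FPKM. The part of these cells in the receptor levels was not tested.

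The sexes were compared in the same way, 2 male against 2 female libraries. No member passed an adjusted p under 0.05 in limma, and 0.00738% of all rows did. At an unadjusted p under 0.05 it was 1 of 20 members (5%), against 10.6% of all rows. This was Chrm4, higher in males by 0.53 (standard error 0.183) on the log2 scale, with an unadjusted p of 0.0247 and an adjusted p of 0.396 in limma. Adra2c was higher in males by 0.50 (standard error 0.216, adjusted p 0.482 in limma) and Adrb1 by 0.64 (0.297, adjusted p 0.509 in limma). Without male control the difference was 0.20 for Adra2c and 0.39 for Adrb1, and without male BPA it was 0.80 for Adra2c. For all 3 the male control library was the highest and the female control library the lowest. In 8 of 20 members (40%) the sexes did not overlap, higher in males for Adra2c, Adrb1, Chrm4, Chrna7, Chrnb2 and Htr1a and lower for Htr2a and Htr3a, where this held for 42.3% of all rows (22.5% higher and 19.8% lower in males).

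The genes that make, carry and break down the transmitters were read from a fixed list of 23. Of these 20 were listed and 9 had a mean of at least 1 FPKM. None of the 9 passed an adjusted p under 0.05 for BPA in limma. At an unadjusted p under 0.05 it was 1 of 9, against 4.7% of all rows. This was Maob, a monoamine-degrading enzyme, lower in BPA in both sexes (5.62, 3.83, 5.75 and 4.11 FPKM). For sex it was 0 at an adjusted p and 2 at an unadjusted p under 0.05 in limma, Maoa and Slc29a4, against 10.6% of all rows. An absolute log2 difference of at least 0.5 between BPA and control was seen in 0 of the 9 in males. In females it was seen in 2, Hnmt (-0.71) and Slc5a7 (-0.89). The listed synthesis enzymes stayed under 1 FPKM. Hdc, for histamine, was at 0.39 to 0.75 FPKM and Ddc, a shared enzyme of serotonin and dopamine synthesis, at 0.18 to 0.48 FPKM. Tph2, for serotonin, was at 0.09 to 0.22 FPKM and Th, for catecholamines, at 0.01 to 0.67 FPKM, and the serotonin transporter Slc6a4 was at 0.04 to 0.13 FPKM. The enzymes of breakdown were higher, with Maoa at 19.5 to 27.5 FPKM and Ache, which splits acetylcholine, at 7.66 to 10.8 FPKM. The low-affinity monoamine transporter Slc29a4 had the highest level of the list, 72.6, 73.6, 56.0 and 66.1 FPKM. Slc5a7, the choline transporter of cholinergic terminals, was at 2.37, 2.35, 3.14 and 1.24 FPKM, with female BPA the lowest.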

How the data were processed

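The authors deposited 1 FPKM value per gene and library, with the gene model length. The submitters' processing notes name HISAT 0.1.6, Bowtie2 2.2.5, RSEM and the build rn6, without their roles, and the annotation is not given in the sources used here. The unit was read from the values. Files were joined on gene ID, and members were matched by symbol. Members and gene lists were chosen with earlier results of these data known. The single values of a few listed genes are not reported here.

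Low values were read as whole fragments. Over gene models 300 to 1500 bases long that carry a gene ID, the depth and length offset were chosen that put most values within 0.15 of a whole number (96.0% to 98.9% of 601 to 629 values; 97.6% of 41 low values of members). This depth sets the precision, and intervals and floors cover counting error only: exact 95% conditional binomial intervals for ratios, and 3 fragments for a count of 0. With 1 pooled library per group, p-values measure only the spread between these libraries. The main fits had no term for the other factor. The spread in the BPA fit therefore includes the difference between the sexes, and that in the sex fit the difference between the treatments.

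Both-sex and between-sex differences were fitted with limma 3.58.1 (R 4.3.3, eBayes with trend) on log2(FPKM + 1), which understates changes of low genes, over rows listed in all 4 files with a mean of at least 1 FPKM, with Benjamini-Hochberg adjustment over all 13542 rows. The rest was done in Python 3.11.15 (pandas 2.3.3, numpy 2.4.6, matplotlib 3.10.9, scipy 1.17.1). The fit and the depth were tested on simulated data. Named are all members at 1 FPKM or more in a library, the others in groups, and limma values for the 6 (BPA) and 3 (sex) members with the smallest p. Alternatives were quantile normalization, other filters, a pseudocount of 0.1, the other factor as covariate, gene ID rows only, each library left out, a log2 threshold of 1, the full length and 99% intervals.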

Additional observations from a re-analysis of the deposited data

Results flagged for a closer look

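Chrm1 was higher in BPA than in control males and lower in BPA than in control females, each beyond the counting error of its pair of libraries, which is why it is listed here: the ratio of BPA to control was 1.24 in males and 0.601 in females. Each sex has 1 library per treatment, and the difference between the sexes was not tested. How often other rows have such opposite intervals is not given here.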

How the results depend on the processing

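No member passed an adjusted p under 0.05 in limma for BPA or for sex under any of the 10 alternatives run for each, and the 85 values of the named members under these alternatives kept their direction and stayed above the threshold. Their size was less stable: leaving out 1 library moved 6 of the 9 values by over 1.5 times (Adra2c, Adrb1, Chrm5, Chrna7, Htr1a and Htr1b). Over all rows, the 0 calls for BPA became 2 with sex as a covariate and ranged from 0 to 3 with each library left out (1 without male BPA and 3 without female control). The 1 call for sex became 21 with a mean of at least 5 FPKM, 55 with treatment as a covariate and 34 with gene ID rows only, and ranged from 1 to 2 with each library left out (2 without female control). The cause was not tested. Members past a log2 difference of 0.5 were 3 in males, 1 with a mean of at least 5 FPKM and 0 at a threshold of 1. In females they were 1, 2 without a filter (Chrna2 added), 5 with a pseudocount of 0.1, 3 after quantile normalization and 0 at a threshold of 1. Counts of intervals excluding 1 were 6 and 6 with the full length and 4 and 4 at 99%. The labels carry no replicate numbers, so there was no replicate block. The fit with sex as a covariate compares BPA with control within each sex, and the smallest adjusted p of the named members in it was 0.495 (Chrm3). The filter at 5 FPKM gave no value for Adrb1, Chrm5, Drd2, Htr1a and Htr1b. Depth limits low members: for Adrb1 in females, from 6 and 10 fragments, the ratio of 1.64 had a counting interval of 0.552 to 5.61.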

Other observations

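The proteins that couple, fold or accompany these receptors were also present. Of the coupling list, 26 of the 29 symbols were listed and all 26 had a mean of at least 1 FPKM, from Adcy8 (1.56 to 2.31 FPKM) to Gnas, the Gs alpha subunit (657 to 710 FPKM). Gnao1, the neuronal Go subunit, was at 195 to 218 FPKM, Gnaq at 95.3 to 110 FPKM and Gnai2 at 123 to 153 FPKM. None passed an adjusted p under 0.05 in limma for BPA or for sex, 0 of 26 had an unadjusted p under 0.05 for BPA (4.7% of all rows) and 4 of 26 for sex (10.6% of all rows). None had an absolute log2 difference of at least 0.5 between BPA and control in either sex.

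Of the chaperones and partners, 9 of the 11 symbols were listed and 7 were tested, with 0 calls for BPA at an adjusted or unadjusted p under 0.05 in limma. For sex there were 0 calls at an adjusted p and 2 of 7 at an unadjusted p under 0.05, Agrn and S100a10. Tmem35, which helps to assemble alpha7 receptors, was at 75.1, 79.6, 84.8 and 86.4 FPKM in control males, BPA males, control females and BPA females, and Ric3, a nicotinic chaperone, at 6.98, 8.08, 8.28 and 7.78 FPKM. S100a10, a partner of the serotonin receptor Htr1b, was at 55.8, 33.6, 77.6 and 66.4 FPKM, with male BPA the lowest and a log2 difference of -0.72 in males and -0.22 in females. Lypd6b, a nicotinic modulator, was at 4.06, 3.91, 3.69 and 6.77 FPKM, with a log2 difference of -0.04 in males and 0.73 in females.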
